A study of Mus musculus with 4 samples.

Results

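The matrix metalloproteinases Mmp8, Mmp9, Mmp12, Mmp13, Mmp14 and Mmp19 and the tissue inhibitors Timp1, Timp2 and Timp3 were followed in mouse bone marrow derived macrophages with and without RBP-J, the DNA-binding protein of the Notch pathway. The genes were taken by symbol. All 9 had an entry among the 22026 symbols listed, and 9 of 9 reached the minimum mean level for testing. RNA was measured by sequencing in 4 libraries. The 2 control libraries (WT) carry the genotype label wildtype control, and the 2 others (RBP-J KO) are labelled Rbpj f/f;LysM cre, a floxed Rbpj removed by a Cre that the lysozyme gene Lyz2 drives in myeloid cells. All mice were C57BL/6 and 8 weeks old, and marrow cells of both groups were grown for 3 days in CMG14-12 supernatant, a source of M-CSF equivalent to 20 ng/ml. The labels do not say whether the controls carried the Cre, the floxed allele or neither, or how many mice gave a library.

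Metalloproteinases are zinc enzymes that cut collagens, elastin, gelatin and other matrix and cell surface proteins. They are made as inactive precursors, and the TIMP proteins block the active enzymes by sitting in the catalytic cleft. Macrophages use them to move through matrix, to clear it and to release bound factors, so the levels of enzymes and inhibitors in these cells are commonly read side by side.

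Levels are given as FPKM, sequenced fragments per length of transcript and size of library, so that genes can be compared per length. Differences are RBP-J KO minus WT on the log2(FPKM + 1) scale, which understates changes of low genes. Pair 1 and pair 2 are the libraries of equal replicate number. Rbpj, the targeted gene, was at 355 and 573 FPKM in the WT libraries, against 51.5 and 77 FPKM in the RBP-J KO libraries of replicates 1 and 2. The replicate number itself divided the libraries. The Y-linked Ddx3y was found in replicate 1 of both genotypes (193 FPKM in WT, 174 FPKM in RBP-J KO) and listed at 0 in replicate 2. Xist, made from an inactive X chromosome, was found in replicate 2 (268 and 289.9 FPKM) and listed at 0 in replicate 1. Summed neutrophil markers (9 genes) reached 6944 FPKM (WT) and 8263 FPKM (RBP-J KO) in replicate 1 but 268 FPKM (WT) and 947 FPKM (RBP-J KO) in replicate 2. The members are therefore also compared inside each pair.

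In RBP-J KO, Mmp13 and Mmp14 were higher and Timp1 and Timp2 lower by at least 1.5-fold in both pairs, and Mmp12 was higher in both by different amounts. None of the 9 genes passed the test: limma with Benjamini-Hochberg adjustment over 11851 genes called 0 members and 0 genes in all (0%), with the smallest adjusted p among the members at 0.457 for Timp2. At an unadjusted limma p under 0.05 there were 2 members, Mmp13 and Timp2, and 524 genes in all (2.19% higher and 2.24% lower). An exact permutation test of 2 libraries against 2 cannot give a two-sided p below 0.333. Differences of at least 1.5-fold in both pairs were found upwards in 2 of 9 members, against 3.86% of all genes tested, and downwards in 2 of 9, against 3.63%. The 9 genes were chosen with earlier results of these data known, so such shares are set side by side as description and not as a test. Counting any size, 4 of 9 members were higher in both pairs (25.1% of all genes) and 3 of 9 lower in both (34.1%), and the latter share is near the background. Both RBP-J KO libraries lay above both WT libraries for 2 of 9 members, Mmp12 and Mmp13 (11.7% of all genes), and below them for 2 of 9, Mmp19 and Timp2 (18.2%, close to the share of the members). The median difference was 0.38 over the 9 members and -0.05 over all genes.

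**Figure D1:**
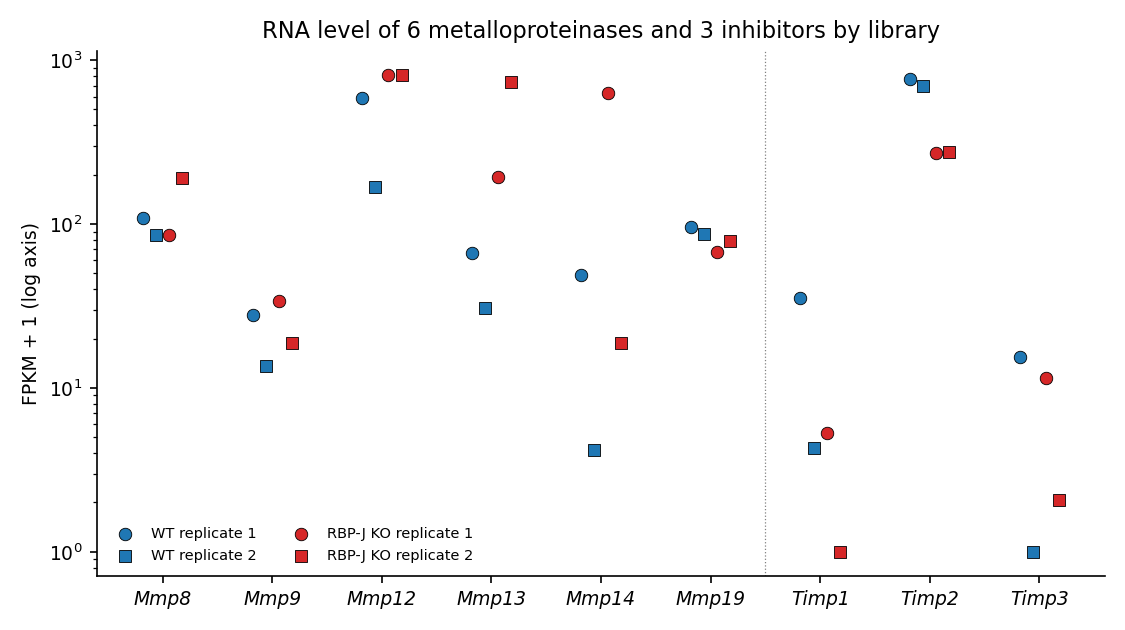
FPKM + 1 (log axis) of each of the 9 genes in the 4 libraries; colour gives the genotype and marker shape the replicate number, 1 point per library. Timp2, Mmp12, Mmp13 and, by a small margin, Mmp19 separate the genotypes, while Mmp14 and Timp1 separate them only inside each replicate number.

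Mmp13, collagenase 3, which cleaves fibrillar collagen and in mice is the main enzyme of that kind, was at 65.3 and 29.8 FPKM in WT replicates 1 and 2, against 192 and 736 FPKM in RBP-J KO replicates 1 and 2. Both RBP-J KO libraries lay above both WT libraries, and the highest, RBP-J KO replicate 2, paired with the lowest. The ratio inside pairs was 2.95 in pair 1 and 24.7 in pair 2, or log2 differences of 1.54 and 4.58. The WT mean was 47.6 ± 25.0 FPKM against 464 ± 385 FPKM for RBP-J KO (SD, n = 2), with a log2 difference of 3.06 (SE 0.76; limma with Benjamini-Hochberg, adjusted p = 0.740). Mmp13 stood above 52.7% and 34.8% of the genes detected in WT replicates 1 and 2, and above 80.3% and 96.5% in the RBP-J KO libraries.

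Mmp8, the neutrophil collagenase, was at 108 and 85.2 FPKM in the WT libraries, against 84.8 and 189 FPKM in those of RBP-J KO. The groups overlapped and the pairs pointed in opposite directions, with log2 differences of -0.34 in pair 1 and 1.14 in pair 2. The difference over all libraries was 0.40 (SE 0.43; limma adjusted p = 0.999), and it changed sign without RBP-J KO replicate 2 (-0.18). Mmp8 was not highest where neutrophil markers were: WT replicate 1 and RBP-J KO replicate 1, with neutrophil sums of 6944 and 8263 FPKM, held 108 and 84.8 FPKM of Mmp8, and RBP-J KO replicate 2, with a sum of 947 FPKM, held 189 FPKM. Inside pair 2 the neutrophil sum was also the higher in RBP-J KO (947 against 268 FPKM), and its part in the Mmp8 difference was not tested.

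Mmp12, the macrophage elastase, which degrades elastin and is typical of macrophages, had the highest level of the 6 enzymes in every library. It was at 586 and 167 FPKM in the WT libraries, against 808 and 815 FPKM in those of RBP-J KO. The RBP-J KO libraries were close to each other (812 ± 5.01 FPKM; SD, n = 2), and the WT libraries were not (377 ± 296 FPKM; SD, n = 2). The groups did not overlap, but the ratio was 1.38 in pair 1 and 4.88 in pair 2, so that the size of the difference followed the WT library. The log2 difference of 1.37 (SE 0.62; limma adjusted p = 0.999) ranged from 0.47 without WT replicate 2 to 2.27 without WT replicate 1.

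Because Mmp12 and Mmp13 are direct neighbours on chromosome 9 and both were higher in RBP-J KO, the bases before their starts are shown. The sequences are RefSeq promoter windows of build GRCm38.p6, cut to the 250 bases before the annotated start; the deposited tables use mm9, and no position was carried over. Capitals mark matches, on either strand, to TGACTCA (the AP-1 site, bound by Fos and Jun proteins), AGGAAG (the PEA3 site of ETS factors) and TGGGAA (the core of the RBP-J site). Mmp12 has 2 annotated starts, and the windows of both are shown.
Mmp13, chr9:7272264-7272513 (plus strand): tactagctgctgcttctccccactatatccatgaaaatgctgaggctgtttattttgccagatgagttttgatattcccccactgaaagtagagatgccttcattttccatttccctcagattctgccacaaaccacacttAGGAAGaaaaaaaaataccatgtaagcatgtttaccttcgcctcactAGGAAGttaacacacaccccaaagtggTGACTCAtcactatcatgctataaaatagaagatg
Mmp12, first start, chr9:7344147-7344396 (plus strand): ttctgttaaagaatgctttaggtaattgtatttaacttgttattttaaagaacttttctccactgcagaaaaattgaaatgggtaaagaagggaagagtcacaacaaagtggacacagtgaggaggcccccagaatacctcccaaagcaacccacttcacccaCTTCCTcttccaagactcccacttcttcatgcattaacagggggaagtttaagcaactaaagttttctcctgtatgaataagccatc
Mmp12, second start, chr9:7347124-7347373 (plus strand): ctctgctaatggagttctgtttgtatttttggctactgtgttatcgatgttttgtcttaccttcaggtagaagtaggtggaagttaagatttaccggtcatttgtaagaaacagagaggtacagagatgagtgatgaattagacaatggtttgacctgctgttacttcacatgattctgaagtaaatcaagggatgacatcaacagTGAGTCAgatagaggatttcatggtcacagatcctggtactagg
The AP-1 match began 35 bases before the start of Mmp13 and 44 bases before the second start of Mmp12, where it reads TGAGTCA. The window of the first start of Mmp12 had no AP-1 match and 1 PEA3 match, which began 87 bases before that start. Mmp13 also had PEA3 matches that began 109 and 62 bases before its start. No TGGGAA was found in these windows. AP-1 matches occurred in 4.46% of the 32851 mouse promoter windows of the same length, PEA3 matches in 29.5% and TGGGAA in 21.6%. A match describes letters and not binding.

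RNA of factors that bind AP-1 and PEA3 sites was read from a list of AP-1 and ETS factors. The list also held Runx2, which belongs to neither family, and the ETS factor Spi1 on it had no entry. Of 9 measured, Runx2 included, 0 passed limma, 1 was at least 1.5-fold higher in both pairs (3.86% of all genes tested) and 0 were lower (3.63%). That gene was Ets1, an ETS factor best known from lymphocytes and endothelium, at 29.9 and 15.6 FPKM in the WT libraries, against 59.7 and 48.3 FPKM in those of RBP-J KO, with both RBP-J KO libraries above both WT libraries (log2 difference 1.27, SE 0.37; limma adjusted p = 0.932). Ets2 had pair differences of -0.93 and 0.04, Junb of 0.99 and -0.12, and Etv5 of -0.04 and 0.47.

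**Figure D2:**
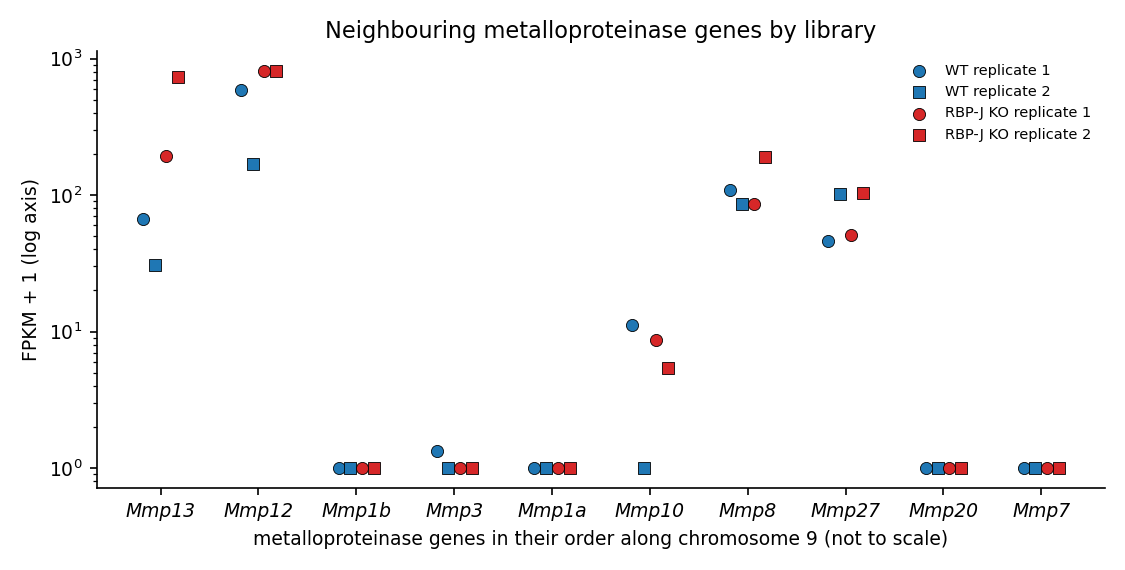
FPKM + 1 (log axis) of the 10 metalloproteinase genes that follow each other on chromosome 9, in their order, in the 4 libraries. Mmp13 and Mmp12 at one end were higher in RBP-J KO, Mmp27 was at like levels in both genotypes of each replicate number, and 4 genes were listed at 0 throughout.

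Mmp12 and Mmp13 were higher in RBP-J KO in both pairs, while Mmp8 and Mmp10 of the same chromosome 9 cluster were higher in pair 2 (1.14 and 2.44) and lower in pair 1 (-0.34 and -0.36). The cluster holds 10 metalloproteinase genes, in the order Mmp13, Mmp12, Mmp1b, Mmp3, Mmp1a, Mmp10, Mmp8, Mmp27, Mmp20 and Mmp7, and 5 of them could be tested. Mmp27 was at 44.7 and 100.3 FPKM in the WT libraries, against 49.9 and 102 FPKM in those of RBP-J KO, a difference of 0.09 (SE 0.54; limma adjusted p = 0.999), while its level followed the replicate number. Mmp10, stromelysin 2, was at 10.2 FPKM in WT replicate 1 and listed at 0 in WT replicate 2, against 7.73 and 4.41 FPKM in RBP-J KO. Mmp1a, Mmp1b, Mmp20 and Mmp7 were listed at 0 in all 4 libraries, and Mmp3 reached 0.34 FPKM in WT replicate 1 alone. Whether one gene of the cluster differed more than another was not tested.

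Mmp14, a membrane-anchored enzyme that cuts collagen at the cell surface and activates the precursor of Mmp2, had the widest range of the 9 genes, 7.23 on the log2 scale. It was at 47.7 and 3.18 FPKM in WT replicates 1 and 2, against 628 and 17.8 FPKM in RBP-J KO replicates 1 and 2. RBP-J KO was higher in each pair, by 13.2 times in pair 1 and 5.58 times in pair 2, yet the groups overlapped, because RBP-J KO replicate 2 lay below WT replicate 1. Replicate 1 was above replicate 2 by 15 times among the WT libraries and 35.4 times among those of RBP-J KO, a larger ratio than that between genotypes in either pair. The log2 difference of 2.93 had an SE of 2.06 (limma adjusted p = 0.999). It was 0.39 without RBP-J KO replicate 1, 1.16 without WT replicate 2, 4.70 without WT replicate 1 and 5.46 without RBP-J KO replicate 2. Its promoter window is shown beside those of the cluster genes, since its pair 1 difference was the largest upward one of the 9 genes; it lies on the plus strand and holds a single PEA3 match.
Mmp14, chr14:54431348-54431597 (plus strand): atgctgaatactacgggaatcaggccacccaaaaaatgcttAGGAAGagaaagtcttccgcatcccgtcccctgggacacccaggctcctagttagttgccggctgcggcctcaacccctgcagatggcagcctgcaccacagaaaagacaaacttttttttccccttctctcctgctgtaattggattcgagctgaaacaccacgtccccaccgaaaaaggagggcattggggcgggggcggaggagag
The match began 209 bases before the start, and neither TGACTCA nor TGGGAA was found in the window.

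Summed markers of dendritic and endothelial cells were highest in RBP-J KO replicate 1, the library with most Mmp14. So were those of macrophages, neutrophils, osteoclasts, mast cells and basophils, and B cells. Stromal and osteoblast markers alone were highest in WT replicate 1. The summed level of the 6 dendritic cell genes was 162 and 94.7 FPKM in the WT libraries, against 747 and 115 FPKM in those of RBP-J KO, with Ccr7 listed at 0 in both replicate 2 libraries. The summed level of the 4 endothelial genes was 48.3 and 7.71 FPKM in the WT libraries, against 135 and 21.1 FPKM in those of RBP-J KO, with Emcn above 0 in WT replicate 1 alone. In RBP-J KO replicate 1, H2-Aa (603 FPKM) made up most of the dendritic cell sum and Kdr (114 FPKM) most of the endothelial sum. The part of any of these cell types in the Mmp14 difference was not tested. In these bulk libraries, more cells of a type and more RNA per cell cannot be told apart.

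The genes whose pattern over the 4 libraries was closest to that of Mmp14 were Cd276, Slfn1 and Cfb, by the root mean square difference of centred log2(FPKM + 1) values over 4 libraries. Cd276, an immune checkpoint molecule of the B7 family, was closest, at 0.47, with 26.9 and 1.47 FPKM in the WT libraries against 182 and 11.4 FPKM in those of RBP-J KO. Slfn1 lay at 0.50 and Cfb, complement factor B, at 0.59. With 4 libraries, this is a description of likeness alone.

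The gelatinase Mmp9, which digests denatured and basement membrane collagen, was at 27.0 and 12.5 FPKM in the WT libraries, against 33.0 and 17.9 FPKM in those of RBP-J KO. It was higher in RBP-J KO in each pair, by ratios of 1.22 and 1.43, and the groups overlapped. The log2 difference was 0.38 (SE 0.50; limma adjusted p = 0.999), and it turned negative without RBP-J KO replicate 1 (-0.04) and also without WT replicate 2 (-0.14). In each genotype replicate 1 was the higher, as it was for the markers of neutrophils, cells that store Mmp9 protein in granules; the part of neutrophils in the difference was not tested.

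Mmp19, an enzyme of basement membrane and other non-fibrillar matrix, was the only enzyme that was lower in both pairs. It was at 94.5 and 85.5 FPKM in the WT libraries, against 66.8 and 78.2 FPKM in those of RBP-J KO. The groups did not overlap, but the margin was small, with ratios of WT to RBP-J KO of 1.42 and 1.09 (log2 difference -0.31, SE 0.20; limma adjusted p = 0.999). In the replicate 2 tables, which list transcripts, isoform 1 was at 37.5 FPKM (WT) and 33.6 FPKM (RBP-J KO) and isoform 2 at 47.9 and 44.6 FPKM, so that neither carried the difference alone. The same tables list the other 5 enzymes as 1 transcript each.

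**Figure D3:**
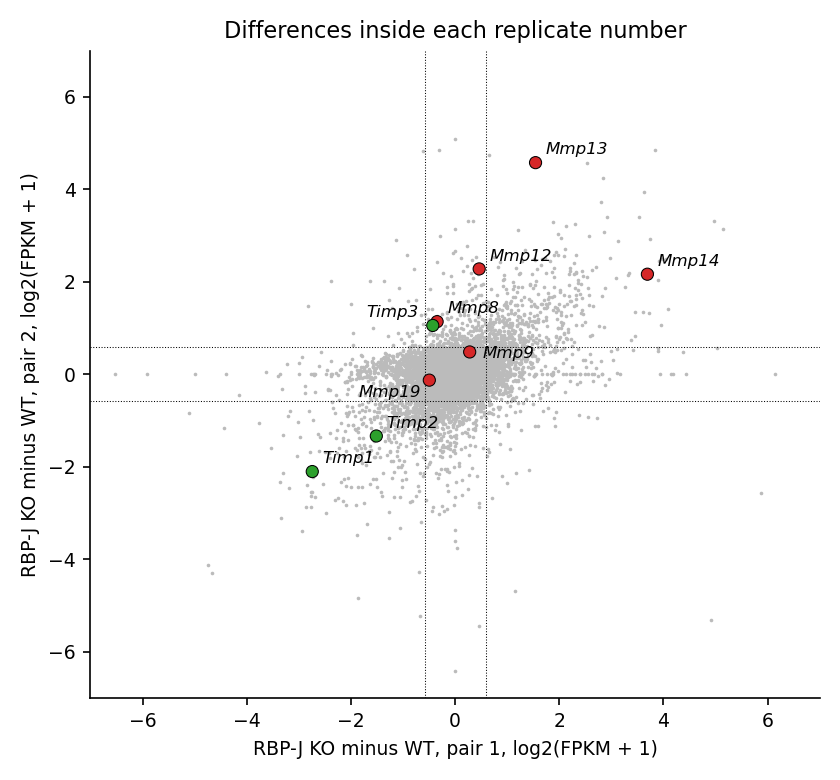
RBP-J KO minus WT on the log2(FPKM + 1) scale in pair 1 (x axis) and pair 2 (y axis) for the genes tested (grey), the 6 metalloproteinases (red) and the 3 inhibitors (green); dotted lines mark 1.5-fold. Mmp13 and Mmp14 lie past the lines at the upper right, and Timp1 and Timp2 at the lower left.

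Among the inhibitors, Timp2 had the most even difference between the pairs. Timp2 blocks most metalloproteinases and also holds the Mmp2 precursor for its activation by Mmp14. It was at 772 and 693 FPKM in the WT libraries, against 269.9 and 274 FPKM in those of RBP-J KO. Both RBP-J KO libraries lay far below both WT libraries, and libraries of one genotype were close to each other. The WT mean was 732 ± 55.7 FPKM against 272 ± 2.89 FPKM for RBP-J KO (SD, n = 2), and WT exceeded RBP-J KO by 2.86 times in pair 1 and 2.53 times in pair 2. The log2 difference was -1.42 (SE 0.18; limma with Benjamini-Hochberg, adjusted p = 0.457), and it stayed between -1.50 and -1.35 when any library was left out.

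Timp1, a secreted inhibitor induced by growth factors and inflammation, was at 34.6 FPKM in WT replicate 1 and 4.32 FPKM in RBP-J KO replicate 1, a ratio of 8.00 of WT to RBP-J KO. In pair 2 it was at 3.30 FPKM in WT and listed at 0 in RBP-J KO. Timp1 was lower in RBP-J KO in each pair, and the groups overlapped, since RBP-J KO replicate 1 was above WT replicate 2. The log2 difference was -2.42 (SE 1.33; limma adjusted p = 0.999), and it moved to -3.95 without WT replicate 2 and to -0.90 without WT replicate 1. It was -4.03 with a pseudocount of 0.1 FPKM and -1.41 with 5 FPKM in place of 1. The replicate 2 tables list 2 transcripts, at 1.51 and 1.79 FPKM in WT and both at 0 in RBP-J KO. Timp1 lies inside the neuronal gene Syn1, which was at 36.5 and 25.3 FPKM in the WT libraries, against 20.1 and 17.6 FPKM in those of RBP-J KO, and no source used here states whether reads were assigned by strand, so that its low values are uncertain.

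Timp3, which binds to matrix and also blocks ADAM proteases, was at 14.4 FPKM in WT replicate 1 and listed at 0 in WT replicate 2, against 10.4 and 1.08 FPKM in RBP-J KO. The groups overlapped, the pairs had opposite signs (-0.43 and 1.06), and the level followed the replicate number. The log2 difference of 0.31 (SE 1.58; limma adjusted p = 0.999) turned negative without RBP-J KO replicate 1 (-0.91) and also without WT replicate 2 (-1.66), and it was 1.55 with a pseudocount of 0.1 FPKM and -0.023 with 5 FPKM. Timp3 lies inside Syn3, which was between 0.88 and 2.28 FPKM in the 4 libraries.

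The windows before Timp2 and Timp1, the inhibitors that were lower in both pairs, are shown with the same marks.
Timp2, chr11:118355412-118355661 (minus strand): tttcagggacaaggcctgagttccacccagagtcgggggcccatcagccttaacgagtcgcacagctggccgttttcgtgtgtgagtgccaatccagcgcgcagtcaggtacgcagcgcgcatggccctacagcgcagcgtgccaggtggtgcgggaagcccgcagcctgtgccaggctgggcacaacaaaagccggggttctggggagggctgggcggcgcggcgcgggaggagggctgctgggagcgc
Timp1, chrX:20869916-20870165 (plus strand): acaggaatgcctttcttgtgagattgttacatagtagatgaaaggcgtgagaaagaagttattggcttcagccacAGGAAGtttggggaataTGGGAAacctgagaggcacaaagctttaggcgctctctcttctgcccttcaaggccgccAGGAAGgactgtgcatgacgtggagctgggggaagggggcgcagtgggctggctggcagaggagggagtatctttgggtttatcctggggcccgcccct
The window of Timp2, which lies on the minus strand and is 68.0% G and C, held none of the 3 motifs. That of Timp1 was the only member window with a TGGGAA match, which began 158 bases before the start, and it had PEA3 matches at 175 and 99 bases. Windows were found for 7 of the 9 genes, with Mmp8 and Timp3 holding 1 PEA3 match each; Mmp9 and Mmp19 had no entry.

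For Timp1 the genes of closest pattern were Dhrs9, Ccl8 and Sema3c. Dhrs9, a short-chain dehydrogenase of retinol, was nearest, at 0.17 over the 4 libraries, with 106 and 16.2 FPKM in the WT libraries against 15.3 and 2.70 FPKM in those of RBP-J KO. Ccl8, a monocyte chemokine, lay at 0.40 and Sema3c, a semaphorin, at 0.42.

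Summed by role, enzyme RNA was higher and inhibitor RNA lower in RBP-J KO. The 6 enzymes summed to 928 and 383 FPKM in the WT libraries, against 1813 and 1854 FPKM in those of RBP-J KO. The 3 inhibitors summed to 821 and 696 FPKM in the WT libraries, against 285 and 275 FPKM in those of RBP-J KO. The ratio of the sums was 1.13 and 0.55 in WT and 6.37 and 6.74 in RBP-J KO, with no overlap between the genotypes; it is a description with no test. Leaving out Mmp12, chosen after the values were seen, gave 0.42 and 0.31 in WT and 3.53 and 3.78 in RBP-J KO.

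The RBP-J KO libraries reached like enzyme sums by different genes. In RBP-J KO replicate 1, Mmp14 made up 34.6% and Mmp13 10.6% of the enzyme sum, and in RBP-J KO replicate 2 Mmp14 made up 0.957% and Mmp13 39.7%, with Mmp12 at 44.6% and 44.0%. Timp2 made up between 94.0% and 99.6% of the inhibitor sum in the 4 libraries. Timp2 was first in level of the 9 genes in both WT libraries; in RBP-J KO it came after Mmp12 and Mmp14 in replicate 1 and after Mmp12 and Mmp13 in replicate 2.

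**Figure D4:**
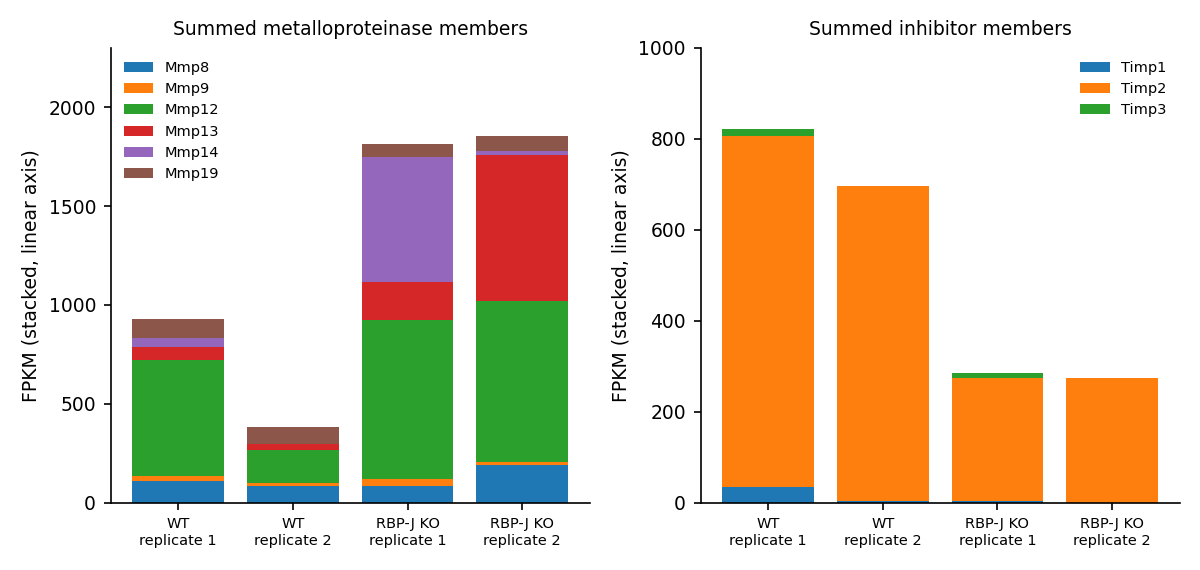
Stacked FPKM (linear axes, of different length) of the 6 metalloproteinases, left, and the 3 inhibitors, right, in each library. WT libraries had enzyme sums of 383 to 928 FPKM, against 1813 to 1854 FPKM for RBP-J KO, and inhibitor sums of 696 to 821 FPKM, against 275 to 285 FPKM.

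Other genes of matrix turnover were read from fixed lists, in which 0 genes passed limma. Of 17 further metalloproteinases, 5 were measured and 7 were listed at 0 in all libraries. Mmp2, the gelatinase that Mmp14 activates, was low, at 2.44 and 1.61 FPKM in the WT libraries, against 7.41 and 2.67 FPKM in those of RBP-J KO. Mmp11 was between 1.15 and 4.02 FPKM, and Mmp25 was at 2.66 and 6.20 FPKM in replicate 1 and listed at 0 in replicate 2. Of 4 further inhibitors only Reck, a membrane-anchored one, was measured, at 1.57 and 2.32 FPKM in the WT libraries, against 0.80 and 0.88 FPKM in those of RBP-J KO.

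The 12 measured genes of the plasminogen system and of surface partners had a median difference of -0.02. Among them, 1 was at least 1.5-fold higher in both pairs (3.86% of all genes tested) and 0 were lower (3.63%). It was Itgav, an integrin chain that binds osteopontin and fibronectin, with pair differences of 0.70 and 1.12. Plau, the urokinase that starts the plasmin cascade upstream of several metalloproteinases, was at 4146 and 1438 FPKM in the WT libraries, against 1231 and 1546 FPKM in those of RBP-J KO, so that it was lower in pair 1 alone. Its receptor Plaur had pair differences near 0 and of 0.87, and Lrp1, which clears proteases, of -0.35 and -0.46.

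Of 8 measured ADAM and ADAMTS proteases, 0 were past 1.5-fold in both pairs (3.86% of all genes tested upwards and 3.63% downwards). Negative differences of some size in each pair were found for 6 of the 8, against 34.1% of all genes (median difference -0.36). Adam9 was at 744 and 625 FPKM in the WT libraries, against 546 and 440.1 FPKM in those of RBP-J KO. Adam8, Adam15 and Adam19 had pair 1 differences of -0.83, -0.34 and -0.55 and pair 2 differences of -0.19, -0.14 and -1.37.

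Of 9 other matrix-degrading proteases, 3 were at least 1.5-fold higher in both pairs (Elane, Prtn3 and Ctsg) and 2 lower (Ctsl and Ctsk). The shares of all genes tested were 3.86% higher and 3.63% lower. Ctsl, the lysosomal cathepsin L, was at 8094 and 1240.1 FPKM in the WT libraries, against 595 and 601 FPKM in those of RBP-J KO, and Ctsd had pair differences of -0.47 and -0.54. Prtn3, a granule protease of neutrophil precursors, was at 35.96 and 7.31 FPKM in the WT libraries, against 85.5 and 36.6 FPKM in those of RBP-J KO, and Ctsg had pair differences of 1.03 and 1.20. Neutrophil markers, among which Elane is also listed, had median differences of 0.31 in pair 1 and 1.91 in pair 2. The part of neutrophils in these granule proteases was not tested.

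The 9 measured matrix proteins had a median difference of -0.63. Of these, 3 were at least 1.5-fold lower in both pairs (3.63% of all genes tested) and 0 higher (3.86%). They were Spp1, osteopontin, a substrate of several metalloproteinases (log2 difference -3.22, SE 0.28; limma adjusted p = 0.378; -3.34 in pair 1 and -3.10 in pair 2), Lamc1 and Sparc. Lamc1, a laminin chain of basement membranes, was at 73.0 and 82.7 FPKM in the WT libraries, against 29.7 and 30.3 FPKM in those of RBP-J KO. Sparc, a collagen-binding protein, was low, at 5.94 and 1.21 FPKM in WT and at 2.33 FPKM and listed at 0 in RBP-J KO, and Vcan had pair differences of -1.18 and -0.08.

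**Figure D5:**
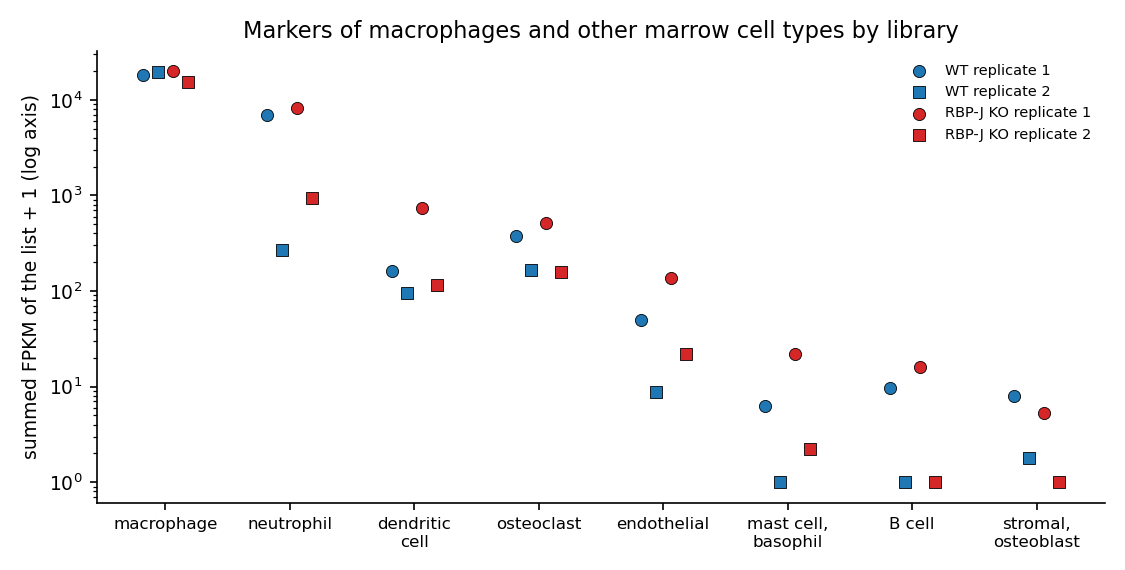
Summed FPKM + 1 (log axis) of marker genes of 8 cell types in the 4 libraries. Macrophage markers were at 15363 to 19904 FPKM in all 4, neutrophil markers were far higher in replicate 1, and stromal and osteoblast markers were at or near 0.

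The label of macrophages was met by the levels of the markers. The 9 macrophage genes summed to 18184 and 19667 FPKM in the WT libraries, against 19904 and 15363 FPKM in those of RBP-J KO, with 0 of them at 0. Of these, 3 (Cd14, Lyz2 and Mrc1) were at least 1.5-fold lower in both pairs, against 3.63% of all genes tested, and 0 higher, against 3.86%. Cd14 and Lyz2 were lower in RBP-J KO by 1.16 and 1.20 in pair 1 and by 0.97 and 0.73 in pair 2. Mrc1 had pair differences of -0.73 and -0.60, Mertk of 0.58 and 0.21 and Cd68 of -0.08 and -0.32. Lyz2 is the gene that drives the Cre, and the labels do not say whether the controls carried it. Effects of the Cre and of the loss of RBP-J on Lyz2 RNA cannot be told apart here. The 14 stromal and osteoblast markers, which stand for fibroblasts and osteoblasts, summed to 6.93 and 0.81 FPKM in the WT libraries, against 4.25 and 0 FPKM in those of RBP-J KO, and 8 were at 0 in all libraries. In RBP-J KO replicate 2, 14 of 14 were listed at 0. Col1a1 had pair differences of -0.41 and -0.50, and Col1a2 of -0.22 and -0.49. The part of such cells in the members' differences was not tested. The 6 osteoclast markers with an entry summed to 378 and 165.5 FPKM in the WT libraries, against 513 and 159 FPKM in those of RBP-J KO. Ctsk was at 123 and 9.43 FPKM in the WT libraries, against 30.8 and 3.86 FPKM in those of RBP-J KO, and Acp5 at 103 and 16.1 FPKM and 314 and 20.5 FPKM, in opposite directions. Atp6v0d2 had pair differences of -0.26 and -0.43, and Nfatc1 of 0.30 and 0.09. Mast cell and basophil markers (5 genes) summed to at most 20.9 FPKM and B cell markers (3 genes) to at most 15.2 FPKM, both in RBP-J KO replicate 1.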

How the data were processed

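RNA was sequenced from 4 libraries, 2 per genotype, grouped by their titles. Per the labels' protocols, libraries were made with an Illumina TruSeq RNA protocol; TopHat, Cufflinks and mm9 are named in the submitters' processing notes, with no version or annotation stated in the sources used here. The deposited values were read as FPKM, since Cufflinks writes that unit, although the headers name none. Low values of the replicate 2 libraries showed no whole-read steps (at most 12.1% of checked transcripts near a whole multiple). The replicate 1 libraries were not checked. Transcript lengths for the check came from a GENCODE annotation, which may differ from the one behind the deposited values. Read depth could therefore not be known, and no interval from counts is given. Summed FPKM per library was 2125327 to 2389348. Replicate 1 was deposited as 22026 genes and replicate 2 as 27583 transcripts, which were summed per symbol (25 symbols turned into dates were restored by description).

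Values were tested as log2(FPKM + 1) for 11851 genes that averaged 1 FPKM or more. The test was limma 3.58.1 (R 4.3.3) with group as the only term and a variance trend. It was two-sided, with Benjamini-Hochberg adjustment at 0.05. The procedure was run on simulated data whose noise was independent between libraries. That simulation held no effect of the replicate number, so it does not show how the fit behaves with the one seen here. No label says that equal replicate numbers share a mouse or a day or that libraries came from separate mice; p-values cover only library-to-library spread, some of which may be technical. The members and the gene lists were chosen with earlier results of these data known. Named genes are the 9 members, Rbpj, up to 4 genes per list with the smallest p, and the 3 genes nearest in pattern to the member and the Timp gene of widest range; others (Ddx3y, Xist, and list genes named because they form a count or lie beside a member) were chosen after their values were seen. Alternatives were other pseudocounts, filters, scalings, the largest transcript, no trend, a replicate block and each library left out. Figures used Python 3.11.15 and matplotlib 3.10.9.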

Additional observations from a re-analysis of the deposited data

How the results depend on the processing

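Over 13 alternatives for each of the 9 genes, the direction was the one reported in 111 of 117 cases. The filters, the replicate block and the fit without a variance trend cannot change a log2 difference, so their agreement was fixed in advance. The largest transcript could change it for Mmp19 and Timp1 alone. No alternative brought a member past the adjusted threshold (limma, smallest adjusted p 0.0736, for Timp2 with the replicate block). The 6 reversals concerned Mmp8 without RBP-J KO replicate 2 (-0.18) and Mmp9 without RBP-J KO replicate 1 (-0.04) and without WT replicate 2 (-0.14). The others were Timp3 without the same libraries as Mmp9 (-0.91 and -1.66) or with a pseudocount of 5 (-0.023). Leaving out a library breaks a pair, so that replicate numbers are unevenly shared between the genotypes. Inside the pairs Mmp9 was higher in RBP-J KO in both (0.28 and 0.48), while replicate 1 exceeded replicate 2 in each genotype. The cause of the reversals was not tested. With libraries left out in turn, log2 differences ranged from -0.18 to 0.97 for Mmp8, -0.14 to 0.91 for Mmp9, 0.47 to 2.27 for Mmp12, 2.10 to 4.03 for Mmp13, 0.39 to 5.46 for Mmp14, -0.42 to -0.20 for Mmp19, -3.95 to -0.90 for Timp1 and -1.66 to 2.29 for Timp3. The pseudocount moved the genes listed at 0 in a library: Timp1 was -4.03 with 0.1 and -1.41 with 5, and Timp3 was 1.55 with 0.1. The count of genes at least 1.5-fold lower in both pairs moved from 430 to 282 with a pseudocount of 5, which shrinks differences of low genes by construction. Deviations from the group means correlated between libraries of equal number (r = 0.64 across genes). With the replicate number as a block, limma called 0 genes (1557 at an unadjusted p under 0.05), and the adjusted p was 0.0736 for Timp2, 0.0916 for Timp1, 0.101 for Mmp14 and 0.232 for Mmp13. Depth is unknown, and levels of a few FPKM, as for Timp1 and Timp3 in replicate 2, are the least certain.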
